A study of Mus musculus with 24 samples.

Results

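H3K4m3-Seq, which sequences chromatin pulled down through trimethylated lysine 4 of histone H3, was compared between mouse kidney and mouse liver. The comparison used 4 of the 8 libraries in the normalised table, namely FFPE kidney, frozen kidney, FFPE liver and frozen liver, where FFPE means fixed in formalin and embedded in paraffin and frozen means flash frozen. The members were taken by organ label, but they and the gene lists were chosen with earlier results of these data known. Of the 27179 genes in the table, 25675 were tested because their mean log2 value over these 4 libraries was at least 0. FFPE brain, frozen brain, FFPE heart and frozen heart served only to show which genes kidney and liver hold in common. The sources used here do not give the strain, sex, age or genotype of the mice. The labels list 6 H3K4m3 samples of kidney and liver, 2 of them FFPE and 1 frozen for each organ, and whether an FFPE column holds 1 of them or both is not given. Each organ has 1 library per preservation type in this comparison. The p-values therefore rest on how far the organ difference changed between FFPE and frozen libraries, pooled with the spread of other genes. Nothing in the labels says that the libraries came from separate animals, so this spread may be technical. Bulk tissue was sampled, taken as cores from the frozen organs, so fewer cells of a type and less of the mark per cell cannot be told apart.

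Trimethylation of lysine 4 on histone H3 marks the promoters of genes that are active or poised in a cell. Kidney proximal tubule cells and liver hepatocytes are both epithelial cells packed with mitochondria and peroxisomes, and both are known to make glucose, break down amino acids, oxidise fatty acids and clear foreign compounds. Hepatocytes also make plasma proteins, bile acids and urea, while tubule cells reclaim solutes from the filtrate and adjust salt, acid and water along the nephron. The question put to the data was which genes of these programmes carry the mark in both organs and which separate them. The labels also list input samples of both organs. No value here was set against them, so a low value does not show that the mark is present.

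The 4 defining markers stood with their labels. *Umod*, which encodes the uromodulin protein of the thick ascending limb, had 54.1 CPM in FFPE and 117 CPM in frozen kidney, against 13.9 CPM in FFPE and 8.44 CPM in frozen liver. *Cdh16*, a cadherin of tubule cells, had 92.9 CPM in FFPE and 106 CPM in frozen kidney, against 32.6 CPM in FFPE and 14.7 CPM in frozen liver. Both kidney libraries lay above both liver libraries for each of these genes, with kidney minus liver differences of 2.88 ± 0.36 and 2.18 ± 0.30 log2 units (limma estimate ± standard error, 2 libraries per organ, adjusted p = 4.10e-07 and 2.50e-06). CPM is the deposited value taken out of its log, in reads per 1e6 of a scaled library. *Apoa2*, an apolipoprotein of plasma lipoprotein particles, had 6.71 CPM in FFPE and 2.93 CPM in frozen kidney, against 46.6 CPM in FFPE and 187 CPM in frozen liver. *Crp*, an acute-phase plasma protein, had 7.60 CPM in FFPE and 5.64 CPM in frozen kidney, against 79.0 CPM in FFPE and 295 CPM in frozen liver. Both kidney libraries lay below both liver libraries for each, at -4.40 ± 0.46 and -4.54 ± 0.37 log2 units (limma, adjusted p = 1.40e-08 and 9.57e-11). *Apoa2* shares its interval with *Tomm40l*, and reads counted in both cannot be told apart.

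The promoter sequences of 3 of these markers, and of the 2 list genes that stood highest above brain and heart while not separating kidney from liver, are shown because H3K4m3 lies at promoters and these genes anchor the comparison. Each sequence runs from 250 bases before the RefSeq start to 50 after it on the gene's own strand, in the GRCm38.p6 assembly, and capitals mark a TATA box or an HNF4 core found by exact match. *Umod* lies at chr7:119479213-119479512 on the minus strand, *Apoa2* at chr1:171224804-171225103, *Crp* at chr1:172697806-172698105, *Cldn2* at chrX:139800558-139800857 and *Pck1* at chr2:173152823-173153122, all 4 on the plus strand.
Umod: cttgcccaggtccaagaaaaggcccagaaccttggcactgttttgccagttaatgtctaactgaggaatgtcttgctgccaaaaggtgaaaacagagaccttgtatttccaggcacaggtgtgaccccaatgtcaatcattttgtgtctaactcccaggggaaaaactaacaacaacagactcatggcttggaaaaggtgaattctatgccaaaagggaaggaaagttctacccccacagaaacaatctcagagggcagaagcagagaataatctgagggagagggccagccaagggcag
Apoa2: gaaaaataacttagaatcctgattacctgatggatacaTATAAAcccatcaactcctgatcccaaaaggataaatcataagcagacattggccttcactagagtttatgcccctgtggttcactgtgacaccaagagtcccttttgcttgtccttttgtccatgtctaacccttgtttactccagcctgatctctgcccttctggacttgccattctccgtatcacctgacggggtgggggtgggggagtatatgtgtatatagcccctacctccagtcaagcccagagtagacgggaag
Crp: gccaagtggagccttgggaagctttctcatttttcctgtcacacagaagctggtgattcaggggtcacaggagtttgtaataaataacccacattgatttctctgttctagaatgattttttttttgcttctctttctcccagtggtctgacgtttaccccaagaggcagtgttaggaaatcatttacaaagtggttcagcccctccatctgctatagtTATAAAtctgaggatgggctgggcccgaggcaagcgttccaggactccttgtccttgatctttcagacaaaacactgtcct
Cldn2: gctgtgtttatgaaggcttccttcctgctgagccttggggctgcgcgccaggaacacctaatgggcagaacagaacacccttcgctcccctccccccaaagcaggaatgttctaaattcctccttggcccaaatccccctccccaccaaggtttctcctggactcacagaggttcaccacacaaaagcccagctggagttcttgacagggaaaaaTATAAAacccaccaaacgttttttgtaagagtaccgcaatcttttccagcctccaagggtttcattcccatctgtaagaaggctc
Pck1: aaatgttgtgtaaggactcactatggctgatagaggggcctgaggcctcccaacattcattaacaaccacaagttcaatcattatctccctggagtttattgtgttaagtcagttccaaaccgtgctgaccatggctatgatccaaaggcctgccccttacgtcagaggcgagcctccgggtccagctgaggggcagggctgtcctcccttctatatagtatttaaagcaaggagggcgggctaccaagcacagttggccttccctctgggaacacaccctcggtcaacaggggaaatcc

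The capitals in *Apoa2*, *Crp* and *Cldn2* are exact matches to the TATA box letters, TATAAA, at -212 to -207, -31 to -26 and -35 to -30 from the start. The match in *Apoa2* lies much further from the start than the other 2, and whether any match acts as a TATA box was not tested. For *Apoa2* this is 1 of 2 promoters listed, and its window lies inside the gene's RefSeq interval, which runs from 171221564 to 171226379. Both strands were searched over 18304 promoters of tested genes, of which 13.0% held the TATA box and 0.443% an HNF4 core, CAAAGTCCA. The windows of *Umod* and *Pck1* hold neither of these 2 motifs. The 5 promoters shown held 0 (*Umod*), 3 (*Apoa2*), 3 (*Crp*), 5 (*Cldn2*) and 6 (*Pck1*) CpG dinucleotides, against a median of 13 over all promoters searched. Only 71.3% of tested genes had a sequence, and differences in motif shares between gene sets were not tested.

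**Figure D1:**
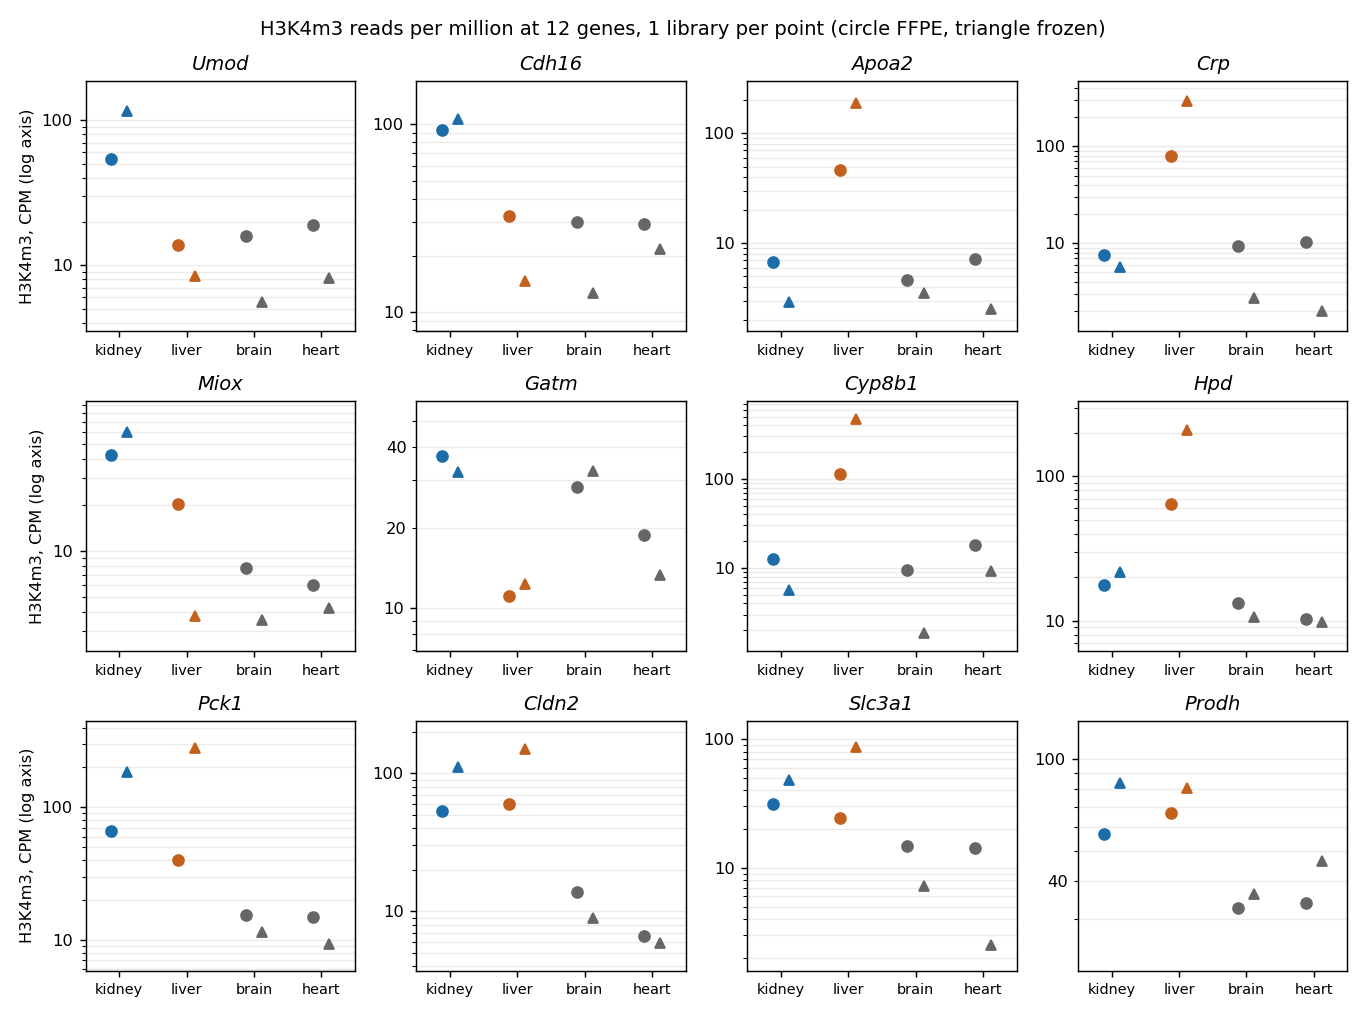
H3K4m3 level in CPM on a log axis at 12 genes, with 1 point per library (circles FFPE, triangles frozen, blue kidney, orange liver, grey brain and heart). *Umod*, *Cdh16*, *Miox* and *Gatm* have both kidney points above both liver points, *Apoa2*, *Crp*, *Cyp8b1* and *Hpd* have both kidney points below, and *Pck1*, *Cldn2*, *Slc3a1* and *Prodh* have overlapping kidney and liver points that all lie above brain and heart.

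Of the 25675 genes tested, 585 (2.28%) were higher in kidney and 769 (3.00%) lower in kidney at an adjusted p under 0.05, which is what "passed" means below. In 573 of the higher and 717 of the lower genes the libraries of the organs did not overlap, and 25.44% of all tested genes had no overlap. The median difference over all tested genes was 0.0246 log2 units. These counts rest on limma's estimate of how the spread depends on the level, since 2 libraries per organ leave 1 residual degree of freedom against 35.31 borrowed from other genes. Without that trend 0 genes passed, with 2511 at an unadjusted p under 0.05 against 3583 with it, and in a fit over all 8 libraries 386 were higher and 466 lower. Every count with 1 library left out, here and in the lists below, comes from that 8-library fit without the library. Such counts are to be read beside the 8-library counts, and the lone library of the organ is assumed to vary like the others. Leaving out frozen kidney left 9 higher and 10 lower genes, leaving out FFPE kidney 174 and 225, leaving out frozen liver 150 and 75, and leaving out FFPE liver 1603 and 1439. Depth was 5275085 reads in FFPE kidney, 2267190 in frozen kidney, 3800135 in FFPE liver and 2976029 in frozen liver. A count of 0 allows up to 0.537, 1.35, 0.700 and 1.18 CPM in these libraries in that order, covering counting error only.

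The genes furthest above liver were led by *Hoxa9*, a homeobox transcription factor of posterior body regions at chr6:52223097-52227370 (GRCm38.p6). It had 159.5 CPM in FFPE and 222 CPM in frozen kidney, against 16.4 CPM in FFPE and 2.55 CPM in frozen liver, and its kidney libraries were 29.0-fold higher on average (4.86 ± 0.40 log2 units, limma, adjusted p = 1.07e-10). *Hoxd10*, of the same family, was 14.3-fold higher in kidney. *Tmem174*, a membrane protein of the proximal tubule, had 57.7 CPM in FFPE and 131 CPM in frozen kidney, against 11.8 CPM in FFPE and 2.16 CPM in frozen liver. *Fxyd2*, the gamma subunit of the sodium pump, was 12.4-fold higher in kidney. Both kidney libraries stood above both liver libraries at each of these genes, which the rule that chose them required. *Kap*, the androgen-regulated protein of mouse proximal tubule, had 80 reads in FFPE and 71 in frozen kidney, against 14 in FFPE and 2 in frozen liver. Few reads also lay behind *Tmem252* and *Hoxd3os1*, with 1 and 3 reads in frozen liver. In the same library *Tmem174* had 5 reads, *Hoxa9* 6, *Fxyd2* 8 and *Hoxd10* 9, so their fold values rest partly on low counts. *Olfr361*, *Vmn1r223*, *Olfr845* and *BC064078*, also among the 12 with the largest differences, had between 0 and 4 reads in each liver library and between 7 and 53 in each kidney library. *Olfr361*, *Vmn1r223* and *Olfr845* are receptors of the olfactory and vomeronasal families. *Kap*, *Vmn1r223* and *Olfr845* did not pass in the 8-library fit (limma, adjusted p = 0.102, 0.0571 and 0.0563).

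Among the 12 genes furthest below liver was *Cyp8b1*, the sterol hydroxylase that sets the share of cholic acid among bile acids, at chr9:121914356-121916305. It had 12.6 CPM in FFPE and 5.64 CPM in frozen kidney, against 114 CPM in FFPE and 470.2 CPM in frozen liver, a 27.5-fold lower level in kidney (-4.78 ± 0.39 log2 units, limma, adjusted p = 9.57e-11). *Vtn*, the plasma adhesion protein vitronectin, was 20.6-fold lower and *Orm1*, an acute-phase glycoprotein, 19.4-fold lower in kidney. *Apoc3* and *Apoc4* are small apolipoproteins encoded in different clusters. *Apoc3* had 5.28 CPM in FFPE and 1.13 CPM in frozen kidney, against 42.6 CPM in FFPE and 182 CPM in frozen liver, and *Apoc4* had 4.56 CPM in FFPE and 1.58 CPM in frozen kidney, against 31.9 CPM in FFPE and 114 CPM in frozen liver. The frozen kidney values of these 2 genes stand for 2 and 3 reads. *Urah*, the hydrolase that follows urate oxidase in urate breakdown, was 20.6-fold lower, *Leap2*, a secreted liver peptide, 19.4-fold lower and *Apoa5*, an apolipoprotein that governs plasma triglyceride, 19.3-fold lower in kidney. Both kidney libraries stood below both liver libraries at these genes, again as the rule required. *Apon* and *Serpina1e* complete the group, and *Serpina1e* is 1 of several near-identical copies, so its reads are uncertain. Frozen kidney had 0 reads at *Serpina1e*, 4 at *Leap2* and 6 each at *Urah* and *Orm1*.

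Taken over 8 lists of metabolic genes, 291 were tested, and 4 were higher in kidney while 102 (35.1%) were lower, beside 2.28% and 3.00% of all tested genes. The median kidney minus liver difference was -0.691 log2 units over these genes, 0.0246 over all tested genes and -0.214 over 16 housekeeping genes. In FFPE libraries the median was -0.494 over the metabolic and -0.00331 over the housekeeping genes, and in frozen libraries -0.839 and -0.294. Of the 102 lower genes, 55 had both kidney libraries at or below the highest brain or heart library, 24 had 1 kidney library above it, and 23 had both above it while liver stood higher still. In the fit over 8 libraries 3 were higher and 57 lower. The counts of higher and lower genes were 0 and 1 without frozen kidney, 1 and 24 without FFPE kidney, 2 and 9 without frozen liver, and 10 and 127 without FFPE liver. In each of the 8 lists on its own, lower genes numbered between 2 and 17 in the 8-library fit, 0 and 1 without frozen kidney, 0 and 8 without FFPE kidney, and 0 and 4 without frozen liver.

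**Figure D2:**
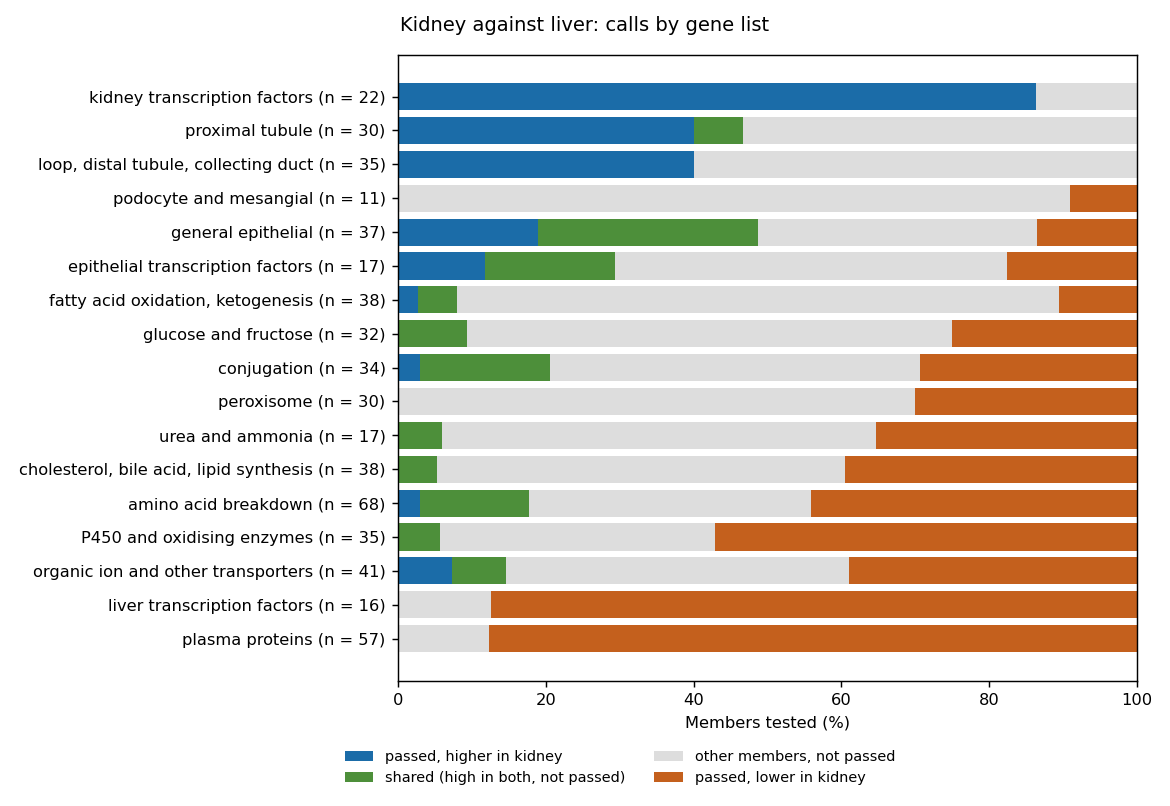
Share of tested members of 17 gene lists that passed as higher in kidney (blue), passed as lower in kidney (orange), were shared between the organs and high against brain and heart (green), or did none of these (grey), with the number tested beside each name. Kidney transcription factors have 19 of 22 members in blue, plasma proteins 50 of 57 in orange, and the general epithelial list is the one with the most green, 11 of 37.

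Bile acid and sterol genes gave 15 lower and 0 higher of 38 tested. *Slc27a5*, the bile acid coenzyme A ligase, had 19.6 CPM in FFPE and 6.09 CPM in frozen kidney, against 111 CPM in FFPE and 213 CPM in frozen liver, 14.1-fold lower in kidney (-3.82 ± 0.36 log2 units, limma, adjusted p = 1.63e-09). *Hsd3b7*, an enzyme of the same pathway, was 5.35-fold lower in kidney. *Cyp7a1*, the rate-limiting enzyme of bile acid synthesis, had 14.6 CPM in FFPE and 15.1 CPM in frozen kidney, against 41.7 CPM in FFPE and 69.6 CPM in frozen liver, 3.63-fold lower in kidney (limma, adjusted p = 2.03e-04). For these 3 genes both kidney libraries stood within or below the range of brain and heart. *Hmgcs1*, a synthase of the early sterol pathway, had a difference of 0.23 ± 0.25 log2 units and did not pass (limma, adjusted p = 0.811).

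Amino acid breakdown genes gave 30 lower and 2 higher of 68 tested. *Tdo2*, which opens the tryptophan ring, had 10.3 CPM in FFPE and 6.54 CPM in frozen kidney, against 28.8 CPM in FFPE and 132 CPM in frozen liver. *Gnmt*, which disposes of surplus methyl groups, had 17.98 CPM in FFPE and 13.3 CPM in frozen kidney, against 66.6 CPM in FFPE and 200.3 CPM in frozen liver. *Tat*, tyrosine aminotransferase, was 7.01-fold lower in kidney (-2.81 ± 0.43 log2 units, limma, adjusted p = 1.75e-05), and *Tdo2* and *Gnmt* were 7.52-fold and 7.47-fold lower. Both kidney libraries lay below both liver libraries at all 3 genes. *Hpd*, the next enzyme of tyrosine breakdown, had 17.8 CPM in FFPE and 21.9 CPM in frozen kidney, against 64.1 CPM in FFPE and 209 CPM in frozen liver and between 9.88 and 13.4 CPM in brain and heart, so kidney stood above those organs and below liver (-2.55 ± 0.30 log2 units, limma, adjusted p = 1.23e-07). The exceptions were *Miox*, the inositol oxygenase of proximal tubule, with 42.7 CPM in FFPE and 60.2 CPM in frozen kidney, against 20.2 CPM in FFPE and 3.73 CPM in frozen liver, and *Gatm*, which makes the creatine precursor guanidinoacetate, with 37.1 CPM in FFPE and 32.2 CPM in frozen kidney, against 11.1 CPM in FFPE and 12.4 CPM in frozen liver. Both passed as higher in kidney, at 2.55 ± 0.45 and 1.56 ± 0.38 log2 units (limma, adjusted p = 1.39e-04 and 0.00779). *Gatm* had 28.4 CPM in FFPE and 32.6 CPM in frozen brain, so frozen kidney did not lie above brain. The list holds both genes, although *Miox* acts on inositol and *Gatm* makes a precursor of creatine rather than breaking down an amino acid. *Gamt*, which turns that precursor into creatine, passed in the other direction at -1.61 ± 0.29 log2 units (limma, adjusted p = 1.74e-04). *Dao*, D-amino acid oxidase, had both kidney libraries above liver but did not pass (1.69 ± 0.57, adjusted p = 0.0872).

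Urea and ammonia genes gave 6 lower and 0 higher of 17 tested. *Nags*, which makes the activator of the urea cycle, had 18.5 CPM in FFPE and 8.35 CPM in frozen kidney, against 116 CPM in FFPE and 337 CPM in frozen liver, 15.9-fold lower in kidney (-3.99 ± 0.35 log2 units, limma, adjusted p = 3.87e-10). *Cps1*, the cycle's first enzyme, was 3.70-fold lower, *Otc*, the second, 2.90-fold and *Arg1*, the last, 4.66-fold (limma, adjusted p = 7.07e-05, 0.0459 and 0.00468). The steps between *Otc* and *Arg1* did not pass. *Ass1*, which kidney uses to make arginine from citrulline, had 17.1 CPM in FFPE and 25.5 CPM in frozen kidney, against 28.1 CPM in FFPE and 53.5 CPM in frozen liver, with between 8.75 and 16.2 CPM in brain and heart, and *Asl*, the next enzyme, had 25.3 CPM in FFPE and 48.9 CPM in frozen kidney, against 39.1 CPM in FFPE and 72.0 CPM in frozen liver. Their differences were -0.90 ± 0.33 and -0.59 ± 0.28 log2 units (limma, adjusted p = 0.136 and 0.335). *Slc14a2* and *Rhcg*, the urea and ammonia transporters of the distal nephron, had both kidney libraries above both liver libraries at 1.10 ± 0.37 and 1.42 ± 0.49 log2 units and did not pass (limma, adjusted p = 0.0804 and 0.0973).

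Glucose and fructose genes gave 8 lower and 0 higher of 32 tested. *Pck1*, the enzyme that commits oxaloacetate to glucose, had 66.5 CPM in FFPE and 184 CPM in frozen kidney, against 40.0 CPM in FFPE and 282 CPM in frozen liver, with between 9.31 and 15.3 CPM in brain and heart. The organs overlapped, and the kidney minus liver difference was 0.73 log2 units in FFPE and -0.62 in frozen libraries. Its mean was 0.06 ± 0.27 log2 units (limma, adjusted p = 0.968), with a standard error of 0.59 in the 8-library fit. Together the organs lay 8.70-fold above brain and heart (limma, adjusted p = 6.25e-04). The later steps passed as lower in kidney while still standing above brain and heart. *Fbp1*, fructose bisphosphatase, had 20.1 CPM in FFPE and 44.9 CPM in frozen kidney, against 45.6 CPM in FFPE and 89.3 CPM in frozen liver, and *G6pc*, glucose-6-phosphatase, had 32.6 CPM in FFPE and 33.1 CPM in frozen kidney, against 39.3 CPM in FFPE and 107 CPM in frozen liver. Their differences were -1.09 ± 0.28 and -0.98 ± 0.30 log2 units (limma, adjusted p = 0.0133 and 0.0489), and *Slc37a4*, the glucose-6-phosphate transporter that serves *G6pc*, was 2.33-fold lower. *Pklr*, liver pyruvate kinase, and *Gckr*, a regulator of hepatic sugar metabolism, were 3.07-fold and 3.26-fold lower, and *Gckr* in kidney lay inside the range of brain and heart. In the 8-library fit 2 genes of this list were lower, *Pklr* among them. *Fbp1*, *G6pc*, *Slc37a4* and *Gckr* did not pass there. *Slc2a2*, the glucose transporter of both epithelia, had a difference of -0.98 ± 0.31 just outside the threshold (limma, adjusted p = 0.0566).

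Fatty acid oxidation and ketogenesis genes gave 4 lower and 1 higher of 38 tested, with a median of -0.248 log2 units (-0.345 with each library centred on its median). For housekeeping genes these 2 medians were -0.214 and -0.31. *Fabp1*, the liver fatty acid binding protein, had 5.81 CPM in FFPE and 2.48 CPM in frozen kidney, against 26.7 CPM in FFPE and 74.0 CPM in frozen liver, 11.7-fold lower in kidney (limma, adjusted p = 6.75e-06). *Acsm2*, a medium-chain acyl coenzyme A synthetase, passed as higher in kidney, with 69.5 CPM in FFPE and 75.5 CPM in frozen kidney, against 44.0 CPM in FFPE and 23.7 CPM in frozen liver (1.17 ± 0.29 log2 units, limma, adjusted p = 0.00818). In the 8-library fit *Acsm2* did not pass (limma, adjusted p = 0.0515). The carnitine steps and chain oxidation did not pass. *Cpt1a*, which admits fatty acids to mitochondria, had 54.5 CPM in FFPE and 48.5 CPM in frozen kidney, against 53.1 CPM in FFPE and 51.6 CPM in frozen liver, with a difference of -0.03 ± 0.27 and a 95% interval from -0.60 to 0.55 in the 8-library fit. *Slc25a20*, the carnitine carrier, had a difference of -0.01 ± 0.27 and an interval from -0.58 to 0.57, and *Acadl*, a long-chain dehydrogenase, 0.11 ± 0.30 with an interval from -0.55 to 0.76.

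Peroxisomal genes gave 9 lower and 0 higher of 30 tested. *Baat*, which joins bile acids to glycine or taurine, had 13.9 CPM in FFPE and 9.70 CPM in frozen kidney, against 56.8 CPM in FFPE and 115 CPM in frozen liver, 6.96-fold lower in kidney (limma, adjusted p = 3.01e-07). *Acox2*, the oxidase for bile acid intermediates, was 3.28-fold lower, and *Cat*, catalase, 2.27-fold, both with kidney above brain and heart. In the 8-library fit *Acox2* did not pass (limma, adjusted p = 0.106).

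Cytochrome P450 and related oxidising enzymes gave 20 lower and 0 higher of 35 tested. The lower count was 7 in the 8-library fit, 1 without frozen kidney, 4 without FFPE kidney, 2 without frozen liver and 24 without FFPE liver. *Cyp2d10* had 11.9 CPM in FFPE and 10.6 CPM in frozen kidney, against 78.5 CPM in FFPE and 207 CPM in frozen liver, 11.3-fold lower in kidney (-3.50 ± 0.32 log2 units, limma, adjusted p = 8.94e-10), although the Cyp2d genes are close paralogs among which reads may be split. *Ces3a*, a carboxylesterase, was 11.1-fold lower. *Cyp2j5*, which acts on arachidonic acid, had 45.7 CPM in FFPE and 58.0 CPM in frozen kidney, against 51.2 CPM in FFPE and 165 CPM in frozen liver, with between 5.36 and 21.3 CPM in brain and heart, and the organs overlapped. The vitamin D enzymes of the proximal tubule did not pass. *Cyp27b1*, which activates the vitamin, had a difference of 0.48 ± 0.36 and *Cyp24a1*, which inactivates it, 1.01 ± 0.38, with both kidney libraries above liver for *Cyp24a1* (limma, adjusted p = 0.638 and 0.144).

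Conjugating enzymes gave 10 lower and 1 higher of 34 tested. *Ugt2b1*, a glucuronosyltransferase, had 11.5 CPM in FFPE and 13.3 CPM in frozen kidney, against 67.6 CPM in FFPE and 168 CPM in frozen liver, 8.61-fold lower in kidney (-3.11 ± 0.32 log2 units, limma, adjusted p = 6.56e-09). *Ugt1a1*, which conjugates bilirubin, was 7.74-fold lower, and it overlaps 8 other Ugt1a genes with which its reads are shared. *Ugt8a*, which makes galactosylceramide, had 41.1 CPM in FFPE and 32.2 CPM in frozen kidney, against 13.7 CPM in FFPE and 10.8 CPM in frozen liver, and passed as higher in kidney (limma, adjusted p = 0.00546). The glycine acyltransferases *Keg1* and *Glyat* and the sulfotransferases *Sult1d1* and *Sult1c2* belonged to the genes held in common. Their differences were 0.01 ± 0.36, -0.54 ± 0.37, 0.60 ± 0.31 and 0.67 ± 0.43 log2 units, and the lowest of their pair-against-brain-and-heart ratios was 2.71-fold.

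**Figure D3:**
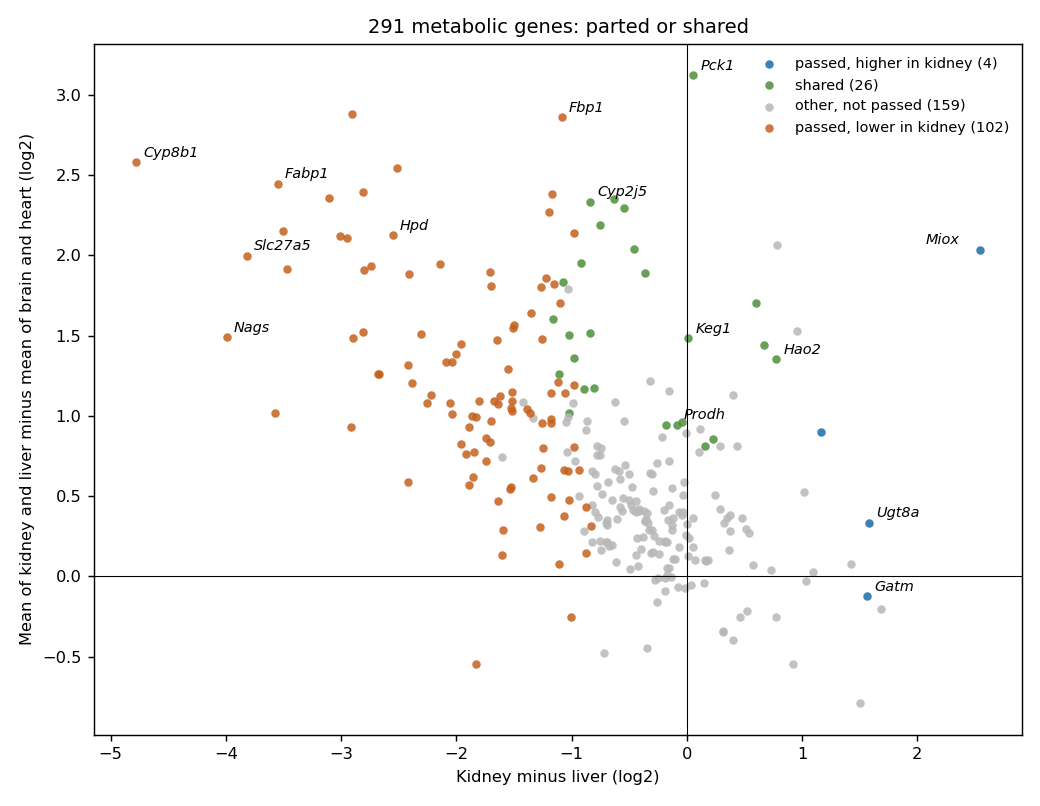
Kidney minus liver in log2 units (horizontal) against the mean of kidney and liver minus the mean of brain and heart (vertical) for 291 metabolic genes, coloured by whether they passed as higher in kidney (4), lower in kidney (102), were shared (26) or none of these (159). Most genes lie left of 0, *Pck1* stands at 0.06 and 3.12, *Cyp8b1* at -4.78 and 2.58, and *Miox* at 2.55 and 2.04.

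A gene was called shared when kidney and liver together passed as higher than brain and heart, all 4 of their libraries lay above all 4 of brain and heart, and kidney minus liver did not pass. The contrast against brain and heart called 1050 of 25680 genes higher (4.09%), and 239 of the 25507 genes in both fits (0.937%) were shared. A further 99 (0.388%) met the first 2 conditions and passed in kidney minus liver, 11 higher and 88 lower in kidney. Without a preservation term 60 genes were shared, 30 of them among the 239, and leaving out 1 library gave between 190 and 260. A p above the threshold does not show equal levels, so the 95% interval of kidney minus liver from the 8-library fit is given, and it lay within 1 log2 unit of 0 for 73 of the 239. Among the metabolic genes 26 were shared, 19 of them with kidney below liver, and the interval excluded 0 for 7, all below 0.

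Of the 45 shared genes in any list, 10 had an interval within 1 log2 unit of 0. *Prodh*, the first enzyme of proline breakdown, had 57.0 CPM in FFPE and 83.7 CPM in frozen kidney, against 66.6 CPM in FFPE and 80.6 CPM in frozen liver, with between 32.5 and 46.6 CPM in brain and heart. Its kidney minus liver difference was -0.09 ± 0.25, with an interval from -0.58 to 0.41, and the 2 organs stood 1.93-fold above brain and heart (limma, adjusted p = 0.00266). *Afmid*, of the tryptophan pathway, had an interval from -0.83 to 0.46, and *Hmgcs1* one from -0.30 to 0.75. *Ldhd*, which oxidises D-lactate, had -0.55 to 0.87, *Etfb*, an electron acceptor of fatty acid dehydrogenases, -0.84 to 0.76, and *Keg1* -0.97 to 0.99. *Slc47a1*, the exporter of organic cations into urine and bile, had 43.2 CPM in FFPE and 36.8 CPM in frozen kidney, against 30.7 CPM in FFPE and 43.0 CPM in frozen liver, a difference of 0.13 ± 0.30 and an interval from -0.55 to 0.82. The other 3 were the epithelial polarity and junction genes *Llgl2*, *Marveld2* and *Eps8l2*.

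Other shared metabolic genes had wider intervals. *Pck1* had an interval from -1.22 to 1.33 and *Pcbd1*, which recycles tetrahydrobiopterin, from -1.84 to 0.92. *Hoga1*, of hydroxyproline breakdown, had 23.2 CPM in FFPE and 37.7 CPM in frozen kidney, against 31.4 CPM in FFPE and 78.7 CPM in frozen liver. *Hao2*, an oxidase of hydroxy acids, had 19.2 CPM in FFPE and 28.2 CPM in frozen kidney, against 12.9 CPM in FFPE and 14.3 CPM in frozen liver, so both kidney libraries lay above both liver libraries without passing (0.77 ± 0.41 log2 units, limma, adjusted p = 0.41). *Acsm1* stood 5.11-fold above brain and heart in the 2 organs together, with an interval of kidney minus liver from -1.56 to 0.31.

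**Figure D4:**
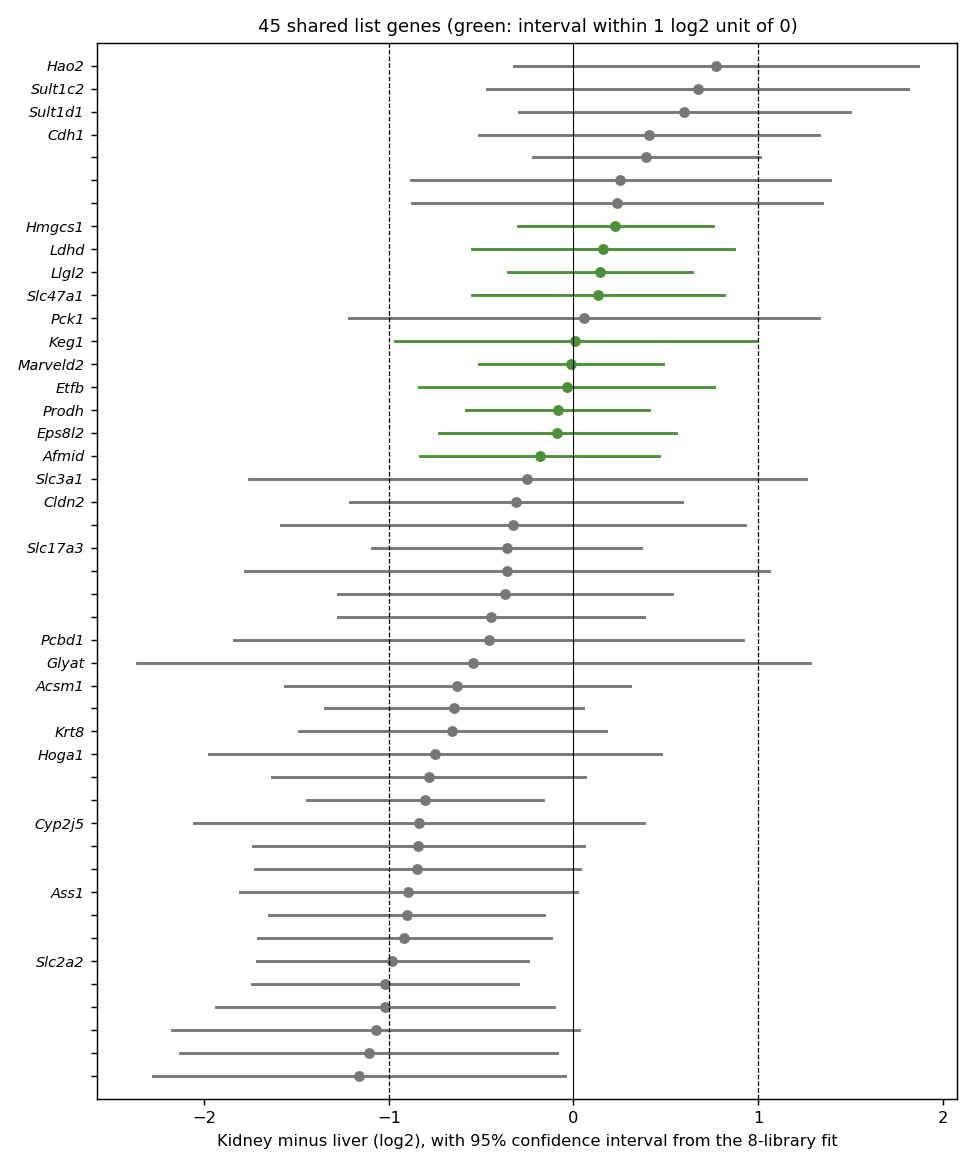
Kidney minus liver difference in log2 units with its 95% interval from the fit over 8 libraries for the 45 shared genes found in a list, sorted by difference, with dashed lines at -1 and 1 and labels for the genes named in the text. The 10 genes in green have intervals inside the dashed lines, 32 of 45 points lie below 0, and the intervals of 8 genes lie wholly below 0.

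Of 30 proximal tubule genes, most of them transporters, 12 were higher in kidney and 0 lower, with a median of 1.15 log2 units. *Slc22a12*, the urate exchanger, had 75.0 CPM in FFPE and 115 CPM in frozen kidney, against 16.7 CPM in FFPE and 9.22 CPM in frozen liver, 7.48-fold higher (2.90 ± 0.33 log2 units, limma, adjusted p = 7.40e-08). *Slc34a1*, the sodium phosphate carrier, had 55.4 CPM in FFPE and 109 CPM in frozen kidney, against 34.9 CPM in FFPE and 7.65 CPM in frozen liver, 4.76-fold higher (limma, adjusted p = 1.67e-04). In the 8-library fit *Slc34a1* did not pass (limma, adjusted p = 0.0598). *Slc6a19*, a carrier of neutral amino acids, was 2.90-fold higher, and *Slc22a6*, the organic anion exchanger, had 41.2 CPM in FFPE and 95.4 CPM in frozen kidney, against 41.2 CPM in FFPE and 8.83 CPM in frozen liver, with the FFPE values nearly equal. *Slc5a2*, the glucose carrier of the early proximal tubule, was just outside the threshold (1.46 ± 0.45 log2 units, limma, adjusted p = 0.051). *Slc3a1*, a subunit of the cystine carrier, had 31.2 CPM in FFPE and 48.0 CPM in frozen kidney, against 24.4 CPM in FFPE and 86.9 CPM in frozen liver, and with *Slc17a3*, a carrier of urate and other anions, it was shared. *Lrp2*, the endocytic receptor megalin, had 129 CPM in FFPE and 106 CPM in frozen kidney, against 115 CPM in FFPE and 57.1 CPM in frozen liver, and did not pass (limma, adjusted p = 0.312). The proximal count was 4 in the 8-library fit, 0 without frozen kidney, 9 without FFPE kidney, 1 without frozen liver and 16 without FFPE liver.

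Loop, distal tubule and collecting duct genes gave 14 higher and 0 lower of 35 tested, with a median of 0.945. *Cldn8*, a claudin of distal segments, had 81.1 CPM in FFPE and 119.8 CPM in frozen kidney, against 14.3 CPM in FFPE and 7.26 CPM in frozen liver, 9.66-fold higher (3.27 ± 0.34 log2 units, limma, adjusted p = 1.12e-08). *Slc12a1*, the sodium, potassium and chloride carrier of the loop, had 57.9 CPM in FFPE and 81.9 CPM in frozen kidney, against 32.6 CPM in FFPE and 15.1 CPM in frozen liver. *Bsnd*, the chloride channel subunit barttin, had 52.1 CPM in FFPE and 57.1 CPM in frozen kidney, against 24.2 CPM in FFPE and 1.37 CPM in frozen liver. *Avpr2*, the vasopressin receptor, and *Aqp2*, the water channel it controls, were 6.02-fold and 3.06-fold higher in kidney (limma, adjusted p = 9.41e-04 and 0.0125). *Slc12a3*, the thiazide-sensitive carrier of the distal tubule, had 61.1 CPM in FFPE and 26.8 CPM in frozen kidney, against 53.3 CPM in FFPE and 30.4 CPM in frozen liver, a difference of 0.01 ± 0.29 (adjusted p = 0.999). The count was 9 in the 8-library fit, 0 without frozen kidney, 8 without FFPE kidney, 5 without frozen liver and 13 without FFPE liver.

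Organic ion and other transporters gave 16 lower and 3 higher of 41 tested. *Slc10a1*, the hepatocyte uptake carrier for bile acids, had 26.4 CPM in FFPE and 6.99 CPM in frozen kidney, against 63.4 CPM in FFPE and 155 CPM in frozen liver, 7.29-fold lower in kidney (limma, adjusted p = 3.39e-06). *Aqp9*, a channel for glycerol and water, was 5.10-fold lower. *Slc26a1*, a sulfate exchanger found in both organs, had 67.0 CPM in FFPE and 39.5 CPM in frozen kidney, against 123 CPM in FFPE and 179.5 CPM in frozen liver, and passed as lower at -1.53 ± 0.27 log2 units (limma, adjusted p = 1.36e-04). *Slc22a2*, the basolateral cation carrier of proximal tubule, had 24.2 CPM in FFPE and 39.0 CPM in frozen kidney, against 14.3 CPM in FFPE and 8.04 CPM in frozen liver, and passed as higher (limma, adjusted p = 0.0218). *Slc22a4*, a carrier of ergothioneine, and *Slc7a8*, a carrier of neutral amino acids, also passed as higher. *Slc22a2* and *Slc22a4* each missed the threshold in 8 of 12 other settings. The counts of higher and lower genes were 1 and 8 in the 8-library fit, 0 and 0 without frozen kidney, 0 and 2 without FFPE kidney, 0 and 0 without frozen liver, and 3 and 18 without FFPE liver, and with each library centred on its median they were 1 and 15.

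Plasma protein genes gave 50 lower and 0 higher of 57 tested, with a median of -2.34. *Rbp4*, the retinol carrier, had 8.68 CPM in FFPE and 11.5 CPM in frozen kidney, against 62.0 CPM in FFPE and 276 CPM in frozen liver, 13.1-fold lower in kidney (limma, adjusted p = 6.58e-10). *Alb*, albumin, had 24.1 CPM in FFPE and 9.70 CPM in frozen kidney, against 31.6 CPM in FFPE and 130.1 CPM in frozen liver, 4.20-fold lower (limma, adjusted p = 0.00101). *Fga*, a fibrinogen chain, was 6.95-fold lower. Among the 7 that did not pass were *Saa1*, *Agt*, *F5*, *Cp*, *F9* and *Afp*, the last at 0.01 log2 units. *Agt*, the angiotensin precursor, had 18.3 CPM in FFPE and 6.99 CPM in frozen kidney, against 26.3 CPM in FFPE and 25.7 CPM in frozen liver. The count of lower genes was 40 in the 8-library fit, 2 without frozen kidney, 26 without FFPE kidney, 12 without frozen liver and 52 without FFPE liver.

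Junction and other general epithelial genes gave 7 higher and 5 lower in kidney of 37 tested, and 11 shared. The counts of higher and lower genes were 6 and 3 in the 8-library fit, 0 and 0 without frozen kidney, 2 and 2 without FFPE kidney, 1 and 0 without frozen liver, and 8 and 8 without FFPE liver. *Cldn7* had 62.2 CPM in FFPE and 68.8 CPM in frozen kidney, against 16.7 CPM in FFPE and 7.65 CPM in frozen liver, 5.79-fold higher (2.53 ± 0.35 log2 units, limma, adjusted p = 3.16e-06), and *Cldn4* was 4.45-fold higher. *Epcam*, an adhesion molecule of simple epithelia, had 45.9 CPM in FFPE and 73.8 CPM in frozen kidney, against 16.4 CPM in FFPE and 20.6 CPM in frozen liver, and passed as higher (limma, adjusted p = 3.87e-04). *Cldn3* had 31.0 CPM in FFPE and 70.1 CPM in frozen kidney, against 81.3 CPM in FFPE and 317 CPM in frozen liver, 3.44-fold lower in kidney, with between 8.52 and 18.5 CPM in brain and heart. *Cldn1* was 3.09-fold lower, and *Gjb1*, the main gap junction protein of hepatocytes, 6.51-fold lower (limma, adjusted p = 4.69e-06, 9.83e-05 and 0.001). In the 8-library fit *Cldn1* did not pass. *Cldn2*, the claudin of leaky epithelia, had 53.0 CPM in FFPE and 110.3 CPM in frozen kidney, against 59.9 CPM in FFPE and 150.5 CPM in frozen liver, with between 5.93 and 13.8 CPM in brain and heart. It was 10.2-fold above brain and heart in the 2 organs (limma, adjusted p = 4.33e-05) with an interval of kidney minus liver from -1.21 to 0.59. *Krt8*, a keratin of simple epithelia, had 29.1 CPM in FFPE and 45.8 CPM in frozen kidney, against 50.3 CPM in FFPE and 65.7 CPM in frozen liver, and *Cdh1*, E-cadherin, had 44.1 CPM in FFPE and 72.8 CPM in frozen kidney, against 37.9 CPM in FFPE and 48.1 CPM in frozen liver, both shared. Claudins of this list fell into all 3 classes, with *Cldn7* and *Cldn4* higher in kidney, *Cldn3*, *Cldn1* and *Cldn14* lower and *Cldn2* shared, while *Cldn12* did none of these.

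Most transcription factors of each organ passed in the direction of that organ. Of 22 kidney factors 19 were higher and 0 lower, with a median of 2.32 log2 units. *Hoxb8* had 189 CPM in FFPE and 231 CPM in frozen kidney, against 24.6 CPM in FFPE and 24.5 CPM in frozen liver, 8.50-fold higher (3.09 ± 0.25 log2 units, limma, adjusted p = 9.57e-11). *Pax8*, which specifies the nephric lineage, had 53.0 CPM in FFPE and 71.0 CPM in frozen kidney, against 24.4 CPM in FFPE and 6.08 CPM in frozen liver, and *Emx2*, also needed for kidney formation, was 6.17-fold higher (limma, adjusted p = 6.93e-05 and 6.28e-08). Of 16 liver factors 14 were lower and 0 higher. *Onecut1*, also known as HNF6, had 13.2 CPM in FFPE and 14.2 CPM in frozen kidney, against 117 CPM in FFPE and 209 CPM in frozen liver, 11.4-fold lower in kidney (-3.52 ± 0.29 log2 units, limma, adjusted p = 9.57e-11). *Foxa2*, a pioneer factor of endoderm, was 8.52-fold lower and *Nr1i3*, the xenobiotic receptor CAR, 10.4-fold lower. The kidney factor count was 19 in the 8-library fit, 2 without frozen kidney, 15 without FFPE kidney, 15 without frozen liver and 20 without FFPE liver. The liver factor count was 13, 1, 6, 4 and 15 under the same changes.

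Factors known from both epithelia gave 2 higher, 3 lower and 3 shared of 17 tested. The counts of higher and lower genes were 2 and 1 in the 8-library fit, 0 and 0 without frozen kidney, 0 and 1 without FFPE kidney, 0 and 0 without frozen liver, and 2 and 5 without FFPE liver. *Hnf4a*, a regulator of both proximal tubule and hepatocyte genes, had 38.9 CPM in FFPE and 46.2 CPM in frozen kidney, against 75.0 CPM in FFPE and 132 CPM in frozen liver, and passed as lower at -1.23 ± 0.26 log2 units (limma, adjusted p = 0.00164). *Nr1h4*, the bile acid receptor FXR, had 32.6 CPM in FFPE and 52.1 CPM in frozen kidney, against 59.2 CPM in FFPE and 125 CPM in frozen liver, and also passed as lower (limma, adjusted p = 0.0089). In the 8-library fit *Hnf4a* and *Nr1h4* did not pass (limma, adjusted p = 0.122 and 0.193). *Klf15*, a regulator of fasting metabolism, was 4.19-fold lower, while *Elf3*, an epithelial factor, and *Ppargc1a*, a coactivator of mitochondrial genes, were 3.04-fold and 1.87-fold higher in kidney. *Ppara*, the receptor that governs fatty acid oxidation, had 94.9 CPM in FFPE and 125 CPM in frozen kidney, against 99.1 CPM in FFPE and 193 CPM in frozen liver, and did not pass (limma, adjusted p = 0.614).

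Marker lists of other cell types are read beside the 2.28% of all tested genes that were higher and the 3.00% that were lower in kidney. Of 16 immune genes 1, the Kupffer cell lectin *Clec4f*, was lower in kidney, and of 16 endothelial genes *Plvap* was higher and the liver sinusoid lectin *Clec4g* lower. Of 14 fibroblast, stellate and muscle genes *Hand2* was lower, and of 6 red blood cell genes 0 passed in either direction. *Plvap* and *Hand2* each missed the threshold in 8 of 12 other settings, the 8-library fit among them. Their summed levels were 312 and 227 CPM in FFPE and frozen kidney against 381 and 229.5 CPM in FFPE and frozen liver for immune genes. For endothelial genes they were 836 and 738 CPM in kidney against 915 and 606 CPM in liver, for fibroblast genes 534 and 382 against 549 and 371, and for red blood cell genes 161 and 159 against 155 and 180.5. The bile duct list gave 4 higher (*Krt7*, *Epcam*, *Muc1* and *Spp1*, all also made by kidney tubules) and 1 lower (*Sox9*) of 10 tested. Podocyte and mesangial genes gave 0 higher and 1 lower of 11, and *Nphs1*, which defines podocytes, had a difference of 0.03 ± 0.33 log2 units with overlapping organs. No marker of these lists that was tested had 0 reads in any of the 4 libraries, and their part in the metabolic differences was not tested. Housekeeping genes gave 0 of 16 in either direction, with a median of -0.214.

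The organ difference was larger in frozen than in FFPE libraries for 1271 of the 1354 genes that passed. Its median size among them was 1.01 log2 units in FFPE and 2.03 in frozen libraries. Over all tested genes its standard deviation was 0.675 in FFPE and 1.06 in frozen libraries, and the 2 differences were correlated across genes at r = 0.301 and rho = 0.257, where genes are not independent replicates and depth and preparation differ between the pairs. Each preservation type has 1 library per organ, so its dependence on preservation was not tested, and freezing, fixation and the different preparation of the tissue cannot be told apart. For the 30 proximal tubule genes the median difference was 0.409 in FFPE and 1.81 in frozen libraries, and for the loop and distal list 0.604 and 1.26.

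**Figure D5:**
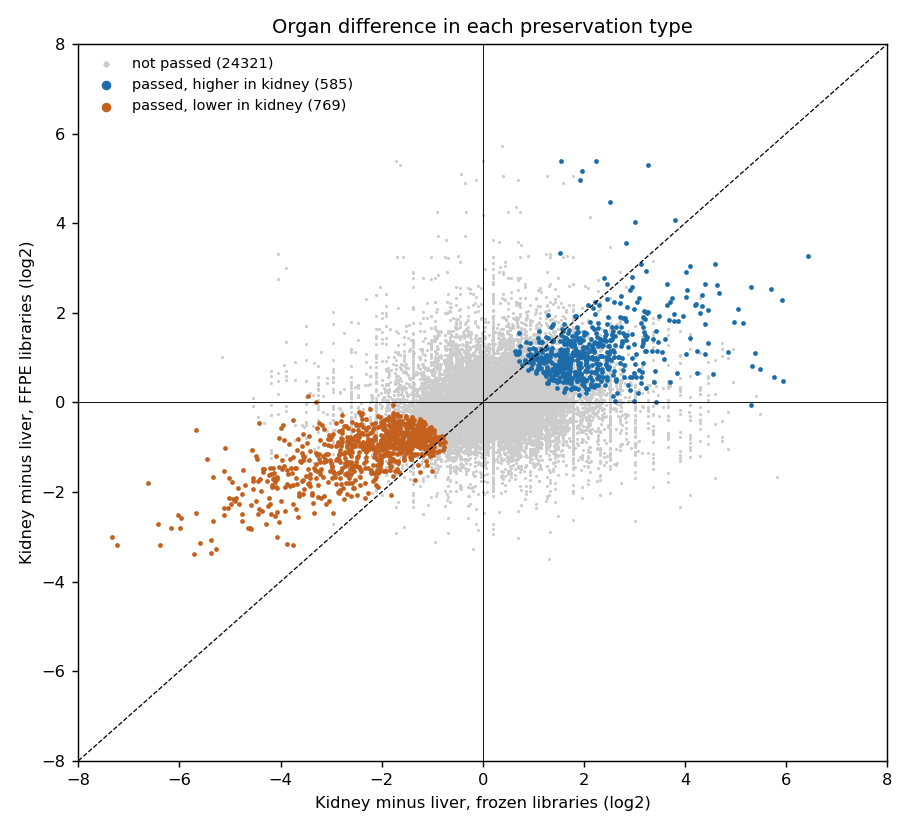
Kidney minus liver in log2 units in frozen libraries (horizontal) against FFPE libraries (vertical) for all tested genes, with genes that passed as higher in kidney in blue (585), as lower in kidney in orange (769) and others in grey; the dashed line marks equal differences. The coloured points lie mostly in the quadrants of equal sign and nearer the horizontal axis than the dashed line.

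Genes that passed were often neighbours on the chromosome. Of 564 genes higher in kidney with coordinates, 118 (20.9%) lay next to another such gene, against 4.42% of all tested genes, and of 751 lower genes 218 (29.0%) did, against 5.85%. Whether neighbours share reads was not tested, and the sources used here do not give the counted part of each gene. The longest runs higher in kidney were the Hox clusters, with 10 adjacent entries on chromosome 6 (52201124 to 52249769), 9 on chromosome 11 and 7 on chromosome 2. The longest run lower in kidney covered 10 serpin genes on chromosome 12 (103728156 to 104106138) and the next 9 Mup genes on chromosome 4, and reads are uncertain at the near-identical Serpina1 and Mup copies among them. Shorter ones held *Apoa1*, *Apoc3*, *Apoa4* and *Apoa5* with *Sik3* on chromosome 9 (46012820 to 46271921), 5 Ugt2b genes on chromosome 5 and 4 Cyp2d genes on chromosome 15. By RefSeq coordinates (GRCm38.p6), further named genes overlap another protein-coding gene: *Slc34a1* and *Pfn3*, *Pklr* and *Hcn3*, *Slc3a1* and *Prepl*, *Slc26a1* and *Idua*, *Ldhd* and *Znrf1*, *Etfb* and *Cldnd2*, *Cyp24a1* and *Pfdn4*, and *Plvap* and *Gtpbp3*. The same holds for *Afmid* and *Tk1*, *Avpr2* and *Arhgap4*, *Cp* and *Hps3*, *Hoxd10* and *Hoxd11*, *Slc5a2* and *Rusf1*, *Tmem252* and *Pgm5*, *Nr1i3* and *Tomm40l*, *Hoga1* and *4933411K16Rik*, and *Apoc4* and *Gm44805*. *Hnf4a* overlaps *Hnf4aos*, which is noncoding. Reads in these overlaps cannot be told apart. Genes of 1 cluster are therefore not independent members of their lists.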

How the data were processed

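The authors deposited log2 values per gene, made with Bowtie2, featureCounts, limma and the mouse build mm10 per the submitters' processing notes. The sources used here give neither versions nor the part of each gene counted. Each deposited log2 value equalled that of a read number plus 0.5 divided by a library total, and whole reads were recovered to within 0.001 for every value, which gave the depths. Frozen and FFPE tissue were brought to chromatin by different procedures, per the labels' protocols. The column names carry no antibody or replicate and were taken as H3K4m3 from the title of the series.

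Kidney minus liver was fitted over 4 columns with preservation as a covariate (limma 3.58.1 with an intensity trend, R 4.3.3, two-sided, Benjamini-Hochberg over 25675 genes, threshold 0.05). Kidney and liver minus brain and heart was fitted over all 8 columns in the same way. Gene lists held 638 names, of which 637 were found, and 25275 gene IDs matched RefSeq (GRCm38.p6), whose coordinates and promoters are used. Reads carry no strand, so overlapping genes cannot be told apart.

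Named genes were the 12 with the largest difference in each direction that passed, had 1 sign in both preservation types and did not overlap (predicted and small RNA genes left out), per list the 3 smallest p-values in each direction and the member furthest against the list's median, the 3 shared genes per list highest above brain and heart, the 4 markers, and list members given as examples. Some list genes and 2 of the motifs searched are not reported here. The members and lists were chosen with earlier results of these data known. Alternatives were other filters, scalings, variance models, no preservation term and each library left out.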

Additional observations from a re-analysis of the deposited data

Results flagged for a closer look

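In 6 lists the genes had a median kidney minus liver difference of opposite sign in FFPE and in frozen libraries. With 1 library per organ in each preservation type the difference between the types was not tested. For podocyte and mesangial genes the median was -0.0574 log2 units in FFPE and 0.498 in frozen libraries. For transcription factors known from both epithelia it was 0.165 in FFPE and -0.0297 in frozen libraries, and for general epithelial genes 0.0284 and -0.0294. Immune genes had -0.246 in FFPE and 0.138 in frozen libraries, endothelial genes -0.0518 and 0.325, and red blood cell genes 0.294 and -0.00252.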

How the results depend on the processing

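Without the intensity trend 0 genes passed in kidney minus liver (0 higher, 0 lower), 0 in kidney and liver minus brain and heart (0 higher), and 0 were shared. At an unadjusted p under 0.05 there were 2511 and 4417 genes in the 2 comparisons, and precision weights, the other variance model run, gave 482 higher and 759 lower in kidney. Without a preservation term 72 genes passed in kidney minus liver (20 higher, 52 lower), 155 in the other comparison (73 higher), and 60 were shared. The fit over all 8 columns gave 852 (386 higher, 466 lower). Leaving out 1 library, in the 8-column fit where the lone library is assumed to vary like the others, gave between 19 and 3042 genes in kidney minus liver (9 to 1603 higher, 10 to 1439 lower). In kidney and liver minus brain and heart it gave between 868 and 4529 (415 to 2106 higher), and between 190 and 260 were shared. The lowest counts came without frozen kidney and the highest without FFPE liver, except that the highest count of shared genes came without frozen liver. Filters, quantile normalisation, centring and weights kept the kidney minus liver counts within 1.5 times. The cause was not tested.

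Of the 89 named genes that passed, 89 kept their call with no filter, 86 under quantile normalisation, 85 under centring, 85 with weights, 75 in the 8-column fit, 30 without a preservation term, 30 without frozen liver, 53 without FFPE kidney, 83 without FFPE liver and 6 without frozen kidney. Those 6 were Vtn, Apoa5, Hoxa10, Onecut1, Rbp4 and Ces3a. The 14 lost in the 8-column fit were Vmn1r223, Olfr845, Kap, Slc34a1, Hnf4a, Nr1h4, Gckr, Acsm2, Acox2, Slc22a2, Slc22a4, Cldn1, Plvap and Hand2. None of the 89 changed sign. No paired analysis was possible because the columns carry no replicate numbers.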
